A study of Rattus norvegicus with 20 samples.

Results

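Cells cultured from the trachea of EGFP rats were compared with cells cultured from the whisker follicle, both before the cells were transplanted into skin. The comparison rests on 4 of the 20 samples of the series, 2 of trachea and 2 of whisker, and the 4 were chosen by their sample labels and not by any measured value. Trachea cells came from donors of 200 days and were a bulk culture. Whisker cells came from donors of 57 days and were clone 7, a culture grown from 1 isolated cell. All donors were Sprague-Dawley rats that carried an EGFP transgene under an actin promoter, so that every cell of the donor was green. Cells of both groups were grown on irradiated mouse 3T3-J2 fibroblasts and sorted on EGFP before RNA was taken. By the study's methods, the best 2 RNA samples of each culture were sequenced. The passage of the sequenced samples is not stated in the sources used here. For transplantation, the study's methods allow later passages for the whisker control clone than for the other cultures. No source used here states that the 2 samples of a group came from separate animals. The p values therefore measure only the spread between samples of a group, which may be technical. That spread was pooled over the 10 groups of the series and not taken from these 4 samples alone.

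The trachea is lined by a pseudostratified epithelium in which basal cells renew secretory and ciliated cells, and its identity is laid down by endodermal transcription factors. The whisker follicle is a large sensory hair follicle whose stem cells lie in the bulge and form the hair, the sebaceous gland and, after injury, the epidermis. In culture on feeder cells, basal cells of both tissues grow as colonies of keratinocyte-like cells. The samples before transplantation allow the cultures of different tissues to be compared with each other.

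The 4 libraries held 21678751 to 24727834 reads assigned to genes, with 6.90% to 8.88% of them on the 10 highest genes of each library. Levels are given as CPM, the usual unit of reads scaled to library size, after TMM scaling, and 3 counts corresponded to between 0.115 and 0.141 CPM. Where the mean CPM of the lower group was under the level of 3 counts in the shallower of its samples, here called under 3 counts, the fold is a lower bound computed against the level of 3 counts and written as "at least". All other folds are ratios of the group mean CPM. CPM is not corrected for gene length, so levels are compared between samples and not between genes. Epcam, an epithelial adhesion molecule, stood at 306 and 302 CPM in trachea and 228 and 229 CPM in whisker, and Cdh1, which encodes E-cadherin, stood at 1253 and 1348 CPM in trachea and 1078 and 975 CPM in whisker. Neither gene passed the 2-fold criterion, and both were chosen for display after their values were seen. Nkx2-1, Tp63, Krt5 and Krt14 have no symbol in the tables used here and are not analysed here.

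The sex of the donors is not stated in the labels. Eif2s3y, a gene of the Y chromosome, stood at 0.0385 and 0.0805 CPM in trachea and 117 and 124 CPM in whisker. The gene carried as Ddx3 followed it, at 0.115 and 0.0402 CPM in trachea and 114 and 119.9 CPM in whisker, although its symbol alone does not place it on the Y chromosome, because RefSeq gives that name to a gene of another chromosome and as a synonym of Ddx3y. The Y-linked transcript was thus close to absent in trachea cells and present in whisker cells. Tissue, the level of the Y-linked transcript, donor age and the choice of a clone or a bulk culture all differed between the groups and cannot be told apart. Passage may have differed too, and it cannot be told apart from these either. In such bulk samples, fewer cells of a type and less RNA per cell cannot be told apart either.

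Of 13302 genes tested, 2055 (15.4%) were called higher and 1712 (12.9%) lower in trachea cells, at an adjusted p under 0.05 and a difference of at least 2-fold. The median log2 difference of all genes tested was 0.02, and it was 0.03 with another scaling (DESeq2 size factors). The median log2 difference was 2.16 among the higher genes and -1.72 among the lower genes. With levels under 3 counts raised to that level, here called bounded, the medians were 1.88 and -1.70. A difference of at least 16-fold was reached by 412 higher and 229 lower genes, of which 267 and 193 remained at that size with levels under 3 counts raised to it. In 500 of the higher genes the whisker mean was under 3 counts, and in 167 of the lower genes the trachea mean was. In the group where they were higher, 32 and 18 of these genes reached 10 CPM in each sample. The 4 samples did not overlap between groups in 11387 of the 13302 genes (85.6%), so the lack of overlap by itself separates few genes from the rest.

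**Figure D1:**
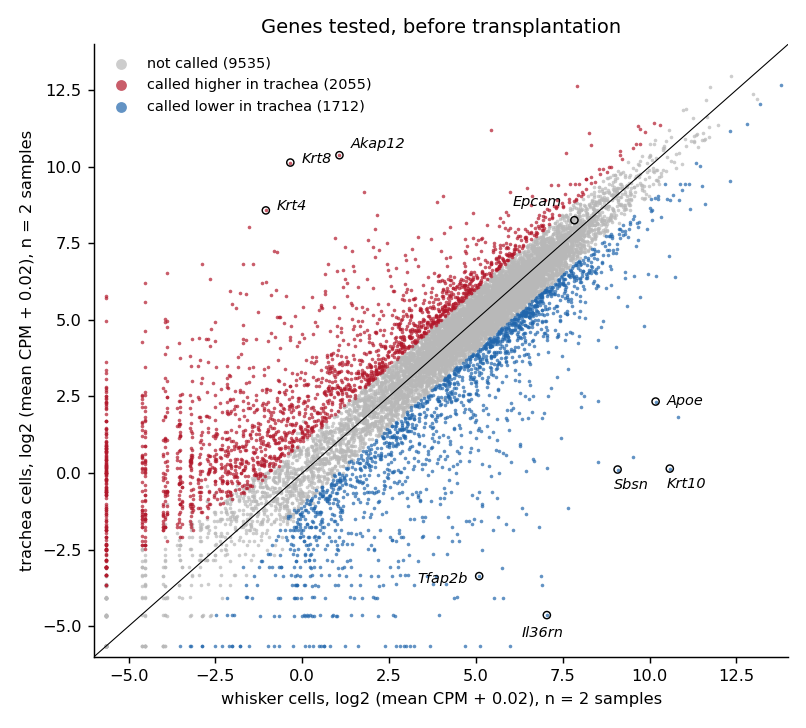
Mean CPM of the 2 trachea samples (vertical) against the mean of the 2 whisker samples (horizontal), both as log2 of CPM plus 0.02, for the 13302 genes tested. Red points are the 2055 genes called higher and blue points the 1712 called lower in trachea. Krt8 and Krt10 lie far from the line of equal levels on opposite sides, and Epcam lies close to it.

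The files list genes by identifier, and 2311 of the genes tested carry a symbol from the supplementary tables used here. Those tables list genes that differed in at least 1 comparison of the study. Of the 3767 genes called here, 1425 carry a symbol, so the lists and the named genes leave out most called genes. A gene without a symbol may differ as well. Of the genes with a symbol, 61.7% were called, 33.2% higher and 28.4% lower in trachea, and the counts of the gene lists below are read against these shares and are not independent evidence of a direction.

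Of 6 keratin-family genes tested, 5 were called higher in trachea and Krt10 was called lower, against 33.2% and 28.4% of all genes with a symbol. Krt8, a keratin of simple epithelia, stood at 1146 and 1095 CPM in trachea and 0.832 and 0.703 CPM in whisker. Krt18, its partner in simple epithelia, stood at 71.8 and 73.5 CPM in trachea and 0.333 and 0.515 CPM in whisker, and Krt19 at 248 and 273 CPM in trachea and 0.374 and 0.281 CPM in whisker. These 3 keratins stood at 71.8 CPM or more in each trachea sample and under 1 CPM in each whisker sample. Their log2 differences were 10.47 ± 0.42 (SE) for Krt8, 7.39 ± 0.48 for Krt18 and 9.54 ± 0.59 for Krt19. Krt4, a keratin of mucosal surface cells, stood at 363 and 396 CPM in trachea and 0.457 and 0.469 CPM in whisker and was 820.1-fold higher in trachea (adjusted p = 1.9e-05). Krt10, the keratin of suprabasal epidermal cells, stood at 1716 and 1351 CPM in whisker and 1.00 and 1.17 CPM in trachea. It was 1415-fold lower in trachea, with a log2 difference of -10.44 ± 0.34 and an adjusted p of 4.4e-13. The remaining member, the hair keratin-associated gene Krtap3-2, was higher in trachea at a low level, with 1.23 and 1.37 CPM in trachea and 0.0416 and 0.0937 CPM in whisker. Krt5, Krt14 and the other keratins on the list have no symbol in the tables used here.

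The upstream sequence of 3 of these genes is shown because their levels were opposed, with Krt18 and Krt4 high in trachea and Krt10 high in whisker. The sequences are the 250 bases before the start site in RefSeq (GRCr8), matched by symbol and written 5′ to 3′ on the strand of the gene, with the letters TATAA in capitals. They lie at chr7:135035918-135036167 (plus strand) for Krt18, chr7:134930714-134930963 (minus strand) for Krt4 and chr10:84839161-84839410 (minus strand) for Krt10.
Krt18: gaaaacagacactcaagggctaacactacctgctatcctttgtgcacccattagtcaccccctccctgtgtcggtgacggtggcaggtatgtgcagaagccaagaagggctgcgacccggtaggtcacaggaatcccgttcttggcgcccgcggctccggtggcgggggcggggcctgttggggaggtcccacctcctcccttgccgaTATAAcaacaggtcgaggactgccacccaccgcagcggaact
Krt4: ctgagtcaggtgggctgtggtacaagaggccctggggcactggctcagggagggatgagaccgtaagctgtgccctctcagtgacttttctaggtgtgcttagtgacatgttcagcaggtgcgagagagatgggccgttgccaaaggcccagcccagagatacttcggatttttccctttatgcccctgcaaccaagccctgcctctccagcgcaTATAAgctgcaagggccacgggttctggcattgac
Krt10: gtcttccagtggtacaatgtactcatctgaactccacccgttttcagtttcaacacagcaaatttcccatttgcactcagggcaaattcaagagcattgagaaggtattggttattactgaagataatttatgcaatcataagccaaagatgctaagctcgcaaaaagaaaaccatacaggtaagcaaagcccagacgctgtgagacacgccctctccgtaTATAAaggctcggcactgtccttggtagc
TATAA, searched on both strands, was found in all 3, beginning 42, 35 and 29 bases before the start site, and 24% of 33469 rat promoters of the same length hold it. GCCNNNGGC, a pattern of AP-2 factors that reads the same on both strands, was found in the sequences of Krt18 and Krt4 and not in that of Krt10, and 12.6% of promoters hold it. These matches are letters in a window and say nothing of binding.

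**Figure D2:**
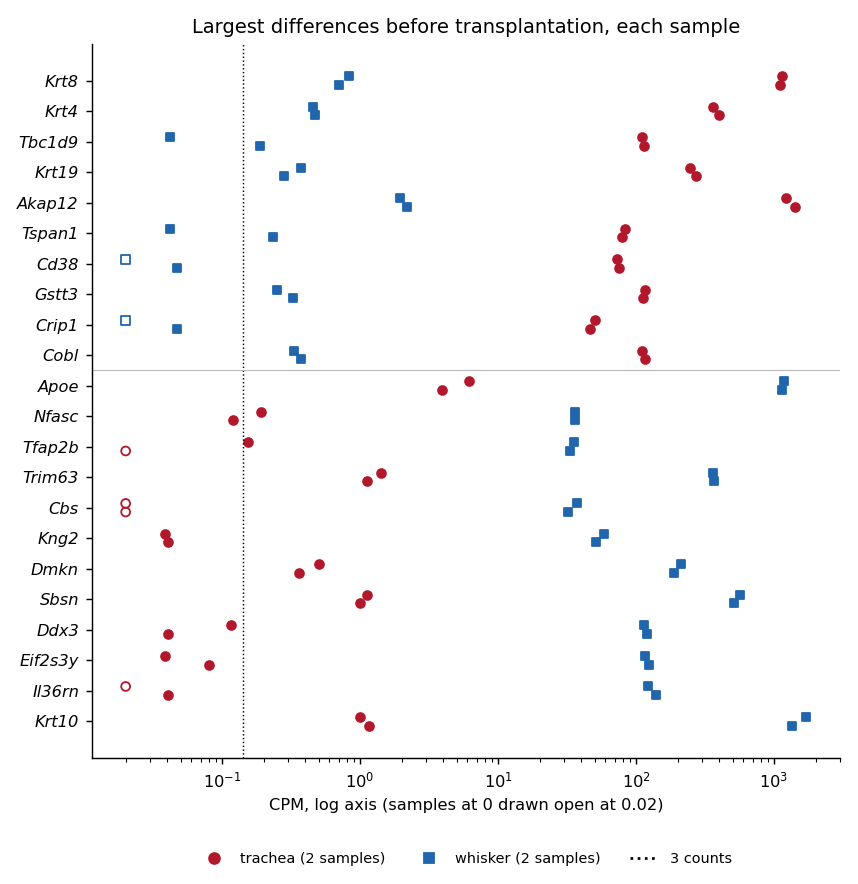
CPM of each sample (log axis) for 22 of the genes with the largest fold, lower bounds taken at their value, 10 higher and 12 lower in trachea, among genes with a symbol whose higher group reached 10 CPM in each sample. Circles are trachea samples and squares whisker samples, open symbols are samples at 0 drawn at 0.02, and the dotted line is the highest level of 3 counts among the 4 samples. Groups that did not overlap were a condition of entry, so the separation seen in all 22 genes is no result.

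Outside the keratins, the genes shown as higher in trachea were of varied function. Akap12, a scaffold for protein kinases, stood at 1224 and 1422 CPM in trachea and 1.95 and 2.20 CPM in whisker and was 637-fold higher in trachea. Cd38, an enzyme that breaks down NAD, stood at 72.8 and 75.4 CPM in trachea and 0 and 0.0469 CPM in whisker and, with a whisker mean under 3 counts, was at least 527-fold higher in trachea. Gstt3, a glutathione transferase, stood at 116 and 112 CPM in trachea and 0.249 and 0.328 CPM in whisker. Cobl, a protein that starts actin filaments, stood at 109.6 and 115 CPM in trachea and 0.333 and 0.375 CPM in whisker, which makes it 318-fold higher. Tbc1d9, a member of a family of Rab regulators, Tspan1, a tetraspanin of secretory epithelia, and Crip1, a small LIM-domain protein, were at least 804-fold higher, at least 577-fold higher and at least 343-fold higher in trachea. Adjusted p ranged from 8.1e-14 for Akap12 to 1.9e-05 for Krt4 among the 10 genes shown.

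The genes shown as lower in trachea were of varied function as well. Sbsn (suprabasin) stood at 567 and 515 CPM in whisker and 1.12 and 1.01 CPM in trachea, and Dmkn (dermokine), its neighbour in the stratified epithelia secreted complex, stood at 213 and 188 CPM in whisker and 0.500 and 0.362 CPM in trachea. Sbsn was 510.3-fold lower and Dmkn 465-fold lower in trachea. Il36rn, which encodes an antagonist of the interleukin 36 receptor, stood at 123 and 141 CPM in whisker and 0 and 0.0402 CPM in trachea and was at least 1091-fold lower in trachea. Apoe, a lipid carrier, stood at 1171 and 1139.8 CPM in whisker and 6.11 and 3.90 CPM in trachea, a log2 difference of -7.87 ± 0.28. Trim63, a ubiquitin ligase best known from muscle, stood at 363 and 364 CPM in whisker and 1.42 and 1.13 CPM in trachea. Tfap2b, a transcription factor of the AP-2 family, stood at 35.3 and 32.9 CPM in whisker and 0.154 and 0 CPM in trachea, and it was at least 283-fold lower in trachea (adjusted p = 2.2e-09). Cbs, which encodes cystathionine beta-synthase, Kng2, a kininogen, and Nfasc, the adhesion molecule neurofascin, stood between 32.1 and 58.8 CPM in whisker samples and at or below 0.192 CPM in trachea samples. Eif2s3y and Ddx3, described above, and Krt10 are the others of the 12 shown.

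Transcription factors of regional or organ identity divided between the cultures. The 32 tested of 35 listed gave 13 called higher in trachea, 11 called lower and 8 not called. All genes with a symbol gave 33.2% higher and 28.4% lower. The median log2 difference of the list was 0.42 (0.43 bounded). Foxa1, a pioneer factor of endodermal epithelia, stood at 19.9 and 19.1 CPM in trachea and 0.0416 and 0 CPM in whisker. Isl1, a LIM-homeobox factor, stood at 12.7 and 12.2 CPM in trachea and 0 and 0 CPM in whisker. Both were well above 3 counts in each trachea sample and below it in each whisker sample, being at least 139-fold higher and at least 88.4-fold higher. Toward whisker, Irx4, an Iroquois factor, stood at 6.404 and 6.47 CPM in whisker and 0 and 0 CPM in trachea. Wt1, a zinc-finger factor best known from kidney and mesothelium, stood at 28.7 and 32.8 CPM in whisker and 0.385 and 0.282 CPM in trachea, and Bcl11a, a transcriptional repressor, stood at 28.4 and 23.8 CPM in whisker and 0.308 and 0.322 CPM in trachea. Log2 differences were -6.45 ± 0.31 for Wt1 and -6.29 ± 0.46 for Bcl11a, and Irx4 was at least 53.3-fold lower in trachea.

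Factors of the hair placode and follicle, with the ectodysplasin pathway, lay mostly toward whisker. Of 15 members with a symbol (23 listed), 9 were called lower and 2 higher in trachea, against 28.4% and 33.2% of all genes with a symbol, and the median log2 difference was -2.01 (-1.87 bounded). Dlx5 and Dlx3 are homeobox factors of ectodermal appendages. Dlx5 stood at 7.98 and 5.53 CPM in whisker and 0.154 and 0.0805 CPM in trachea, and Dlx3 at 18.3 and 16.5 CPM in whisker and 0.615 and 0.604 CPM in trachea. All whisker values lay above all trachea values, and Dlx3 was 28.5-fold lower in trachea (log2 -4.79 ± 0.27). Edar, the ectodysplasin receptor, stood at 0.790 and 0.797 CPM in whisker and 0.154 and 0.282 CPM in trachea (adjusted p = 0.0053), and Eda, its ligand, at 4.70 and 3.37 CPM in whisker and 4.96 and 4.95 CPM in trachea, which did not pass the test. The members called higher in trachea were Cd34, a marker of bulge cells in the mouse follicle and of endothelium, at 0.769 and 0.885 CPM in trachea and 0.0832 and 0 CPM in whisker, and Sox11, at 1.19 and 1.05 CPM in trachea and 0.0832 and 0.281 CPM in whisker. The fit of only these 4 samples called 1 of the 2.

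Secretory and surface genes of the airway lay mostly toward trachea. Of 33 listed genes 19 carried a symbol, of which 15 were called higher and 4 lower in trachea. All genes with a symbol gave 33.2% higher and 28.4% lower. The median log2 difference of the list was 5.02 (3.92 bounded). Tspan1 stood at 82.9 and 79.4 CPM in trachea and 0.0416 and 0.234 CPM in whisker. Clca1, a secreted regulator of goblet cells, stood at 4.92 and 4.51 CPM in trachea and 0 and 0 CPM in whisker, and Muc20, a membrane mucin, stood at 4.23 and 4.47 CPM in trachea and 0 and 0 CPM in whisker. The last 2 were thus low in trachea cells and at 0 in whisker cells, being at least 33.5-fold higher and at least 30.9-fold higher. The members called lower in trachea were Fxyd4, Sftpc, Slc15a1 and Clca2. Fxyd4, a regulator of the sodium pump, stood at 128 and 136.6 CPM in whisker and 0.884 and 1.33 CPM in trachea (log2 -6.91 ± 0.31). Sftpc, which encodes a surfactant protein of alveolar cells, was low in whisker and at 0 in trachea, with 2.00 and 2.67 CPM in whisker and 0 and 0 CPM in trachea. Summed over the list, the level was 1016 and 1038 CPM in trachea and 972 and 828 CPM in whisker, and most of it came from Clca2 in whisker and from Tspan8 and Clca2 in trachea.

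Genes of motile cilia were more often higher in trachea, at low levels. Of 22 tested (32 listed), 13 were called higher and 2 lower in trachea, against 33.2% and 28.4% of all genes with a symbol. The median log2 difference was 1.13 (1.01 bounded). Without whisker replicate 1, 8 were called higher. Dnah2, an axonemal dynein heavy chain, stood at 5.81 and 7.32 CPM in trachea and 0.291 and 0.562 CPM in whisker, and Efhc2 and Ribc2, which encode proteins of ciliary microtubules, were at or below 0.523 CPM in every sample. Dnah9, a dynein of airway cilia, stood at 0.0769 and 0.161 CPM in trachea and 0.249 and 0.0469 CPM in whisker, near the level of 3 counts, and was not called. Dynlrb2, a dynein light chain, and Cfap43, a ciliary protein, went the other way and were 8.36-fold lower and 4.76-fold lower in trachea. The summed level of the list was 47.8 and 52.4 CPM in trachea and 18.9 and 21.4 CPM in whisker.

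Desmosome and cornified envelope genes lay mostly toward whisker. Of 29 tested (41 listed), 19 were called lower and 2 higher in trachea, against 28.4% and 33.2% of all genes with a symbol. The median log2 difference was -2.41 (-2.35 bounded). Besides Sbsn and Dmkn, Klk7, a protease of desquamation, stood at 23.4 and 20.6 CPM in whisker and 0.385 and 0.0805 CPM in trachea and was 94.7-fold lower in trachea. Desmosomal genes did not move alike. Dsc3 stood at 1600.2 and 1410.0 CPM in whisker and 136 and 136 CPM in trachea, a log2 difference of -3.47 ± 0.09, and Dsg3 at 1328 and 1121 CPM in whisker and 667 and 722 CPM in trachea, which did not reach 2-fold. Dsc2, in contrast, stood at 737 and 805 CPM in trachea and 309 and 267 CPM in whisker, a log2 difference of 1.42 ± 0.14. The other gene called higher in trachea was Padi1, an enzyme that citrullinates epidermal proteins, at 156 and 146 CPM in trachea and 0.582 and 0.515 CPM in whisker (log2 8.04 ± 0.31). Dsc3 and Dsg3 are also on the list of basal markers given below.

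Junction genes of epithelia were divided. Of 22 tested (28 listed), 8 were called higher and 7 lower in trachea, against 33.2% and 28.4% of all genes with a symbol. Cldn7, a claudin of tight junctions, stood at 59.5 and 58.3 CPM in trachea and 0.208 and 0.328 CPM in whisker and was 219.9-fold higher. Cdh2 (N-cadherin) stood at 35.4 and 31.6 CPM in whisker and 1.92 and 1.37 CPM in trachea and Cdh13 (T-cadherin) at 240.1 and 214 CPM in whisker and 36.5 and 38.0 CPM in trachea, and these were 20.4-fold lower and 6.10-fold lower in trachea. Cdh6 and Cdh17 were higher in trachea at low levels, and Cdh16 was lower.

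**Figure D3:**
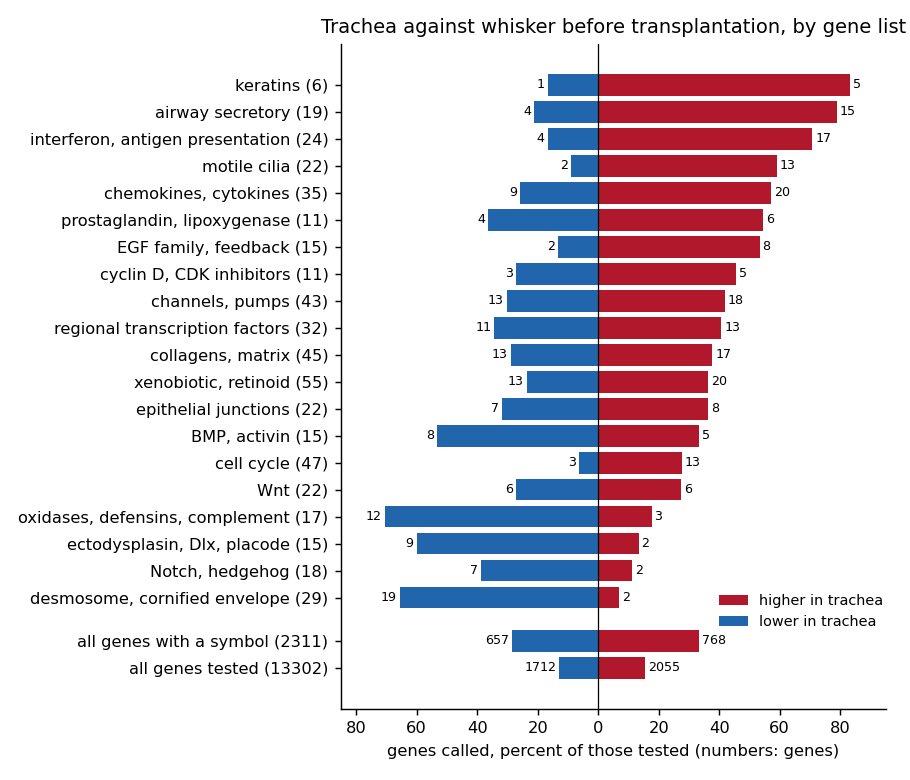
Percent of the tested members of each of 20 gene lists called higher (red, right) or lower (blue, left) in trachea, with the number of genes beside each bar and the number tested in parentheses. The last rows give all genes with a symbol and all 13302 genes tested. Keratins and airway secretory genes have the largest shares on the side of trachea, and oxidases, defensins and complement the largest on the side of whisker.

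Wnt pathway genes were divided evenly. Of 22 tested (29 listed), 6 were called higher and 6 lower in trachea, with a median log2 difference of -0.68. Both counts were near the shares of all genes with a symbol, 33.2% higher and 28.4% lower. Among ligands, Wnt4 stood at 288 and 295 CPM in trachea and 57.6 and 51.6 CPM in whisker (log2 2.42 ± 0.13), and Wnt3, at a low level, at 1.29 and 0.984 CPM in whisker and 0.115 and 0.0805 CPM in trachea, which was at least 9.42-fold lower in trachea. Dkk3, a member of the Dickkopf family of secreted Wnt modulators, stood at 4.46 and 5.31 CPM in trachea and 0.0416 and 0 CPM in whisker. Lgr4, a receptor for R-spondins, stood at 153 and 179 CPM in whisker and 22.3 and 22.4 CPM in trachea, and Celsr2, a planar polarity cadherin, at 333 and 345 CPM in whisker and 71.1 and 82.0 CPM in trachea. The log2 differences of these 2 whisker-side genes were -2.89 ± 0.13 and -2.15 ± 0.16. Apc2, a relative of the APC destruction complex protein, was 21.9-fold higher and Apcdd1, an inhibitor of Wnt signals, at least 3.78-fold higher. The call of Apcdd1 was lost without whisker replicate 2, where its fitted log2 difference was 2.40 with an adjusted p of 0.0583.

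BMP and activin genes gave 5 called higher and 8 lower of 15 tested (19 listed), against 33.2% and 28.4% of all genes with a symbol. The count called higher was near that share. The median log2 difference was -1.14 (-1.12 bounded). Ligands were found on both sides. Inhba, the activin A subunit, stood at 20.3 and 20.3 CPM in trachea and 0.333 and 0.281 CPM in whisker, Gdf15, a stress-induced member of the TGF-beta superfamily, at 22.7 and 23.8 CPM in trachea and 1.33 and 1.12 CPM in whisker, and Bmp8b at 71.1 and 72.7 CPM in trachea and 8.61 and 6.75 CPM in whisker. Bmp4, in contrast, stood at 9.65 and 9.51 CPM in whisker and 0.500 and 0.765 CPM in trachea, and Chrd, which encodes the BMP antagonist chordin, at 8.90 and 11.9 CPM in whisker and 0.654 and 0.604 CPM in trachea. Inhba was 66.1-fold higher, and Bmp4 and Chrd were 15.2-fold lower and 16.5-fold lower in trachea. Acvr1b, an activin receptor, was 4.22-fold lower.

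Notch and hedgehog genes gave 7 called lower and 2 higher of 18 tested (28 listed), against 28.4% and 33.2% of all genes with a symbol. The median log2 difference was -0.70. Gli1, a transcription factor that is itself induced by hedgehog signals, stood at 10.2 and 11.3 CPM in whisker and 0.538 and 0.161 CPM in trachea, and Gli2 at 48.2 and 49.9 CPM in whisker and 10.4 and 11.3 CPM in trachea. Dlk2, a relative of the Notch ligands, stood at 89.7 and 96.4 CPM in whisker and 12.4 and 15.3 CPM in trachea. Their log2 differences were -5.07 ± 0.39, -2.18 ± 0.11 and -2.76 ± 0.15. Dlk1 was 6.13-fold higher in trachea. Disp2 was the other gene called higher, and without whisker replicate 2 it was not called (log2 0.83, adjusted p = 0.165).

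Ligands of the EGF receptor and transcripts induced by its signals lay mostly toward trachea, with 8 of 15 tested (16 listed) called higher and 2 lower. All genes with a symbol gave 33.2% higher and 28.4% lower. The median log2 difference of the list was 1.21 (1.20 bounded). Areg (amphiregulin) stood at 134 and 123 CPM in trachea and 18.7 and 16.4 CPM in whisker, and Ereg (epiregulin) at 44.9 and 47.2 CPM in trachea and 6.03 and 5.01 CPM in whisker. Etv5, a transcription factor downstream of ERK, stood at 25.1 and 26.0 CPM in trachea and 3.58 and 3.70 CPM in whisker. Areg was 7.32-fold higher, Ereg 8.34-fold higher and Etv5 7.01-fold higher in trachea. The genes called lower were Errfi1, a feedback inhibitor of the receptor, at 427 and 408 CPM in whisker and 167 and 171 CPM in trachea, and Erbb3, a co-receptor, at 115 and 122 CPM in whisker and 50.3 and 56.2 CPM in trachea. EGF was an additive of the culture medium in both groups.

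Collagens and other matrix genes were divided, with 17 called higher and 13 lower in trachea of 45 tested. Among all genes with a symbol the shares were similar, 33.2% higher and 28.4% lower. The median log2 difference was 0.33, and -0.04 bounded, so its sign was not settled. Adamts1, a matrix protease, stood at 153 and 155 CPM in trachea and 3.49 and 5.67 CPM in whisker, and Col4a4, a basement membrane chain, at 2.27 and 2.82 CPM in trachea and 0.0832 and 0.0937 CPM in whisker. Crispld2, a secreted glycoprotein, stood at 281 and 268 CPM in whisker and 5.84 and 5.47 CPM in trachea, and Tgfbi at 407 and 402 CPM in whisker and 32.3 and 29.5 CPM in trachea. Crispld2 had the lowest adjusted p of the genes on the lists, 1.1e-15, with a log2 difference of -5.60 ± 0.11. Col17a1, the hemidesmosomal collagen of basal cells, stood at 5157 and 5133 CPM in whisker and 714 and 777 CPM in trachea (log2 -2.79 ± 0.20).

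Of 9 fibroblast markers tested (15 listed), 6 were called higher in trachea, 2 were not called and 1, Aspn, was called lower in trachea, where it was at or close to 0. All genes with a symbol gave 33.2% higher and 28.4% lower. Col3a1, an interstitial collagen, stood at 100.4 and 105 CPM in trachea and 3.74 and 9.23 CPM in whisker, and Col6a3 at 22.8 and 23.6 CPM in trachea and 2.04 and 4.22 CPM in whisker. The whisker samples differed from each other by more than the trachea samples did, and replicate 2 was the higher in both genes. The summed level of the fibroblast markers was 460.0 and 478 CPM in trachea and 129 and 161 CPM in whisker. The cells had grown on mouse fibroblasts and had been sorted on EGFP, and the part of feeder cells or of rat fibroblasts in these levels was not tested.

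Chemokines, cytokines and their receptors gave 20 called higher and 9 lower in trachea of 35 tested, against 33.2% and 28.4% of all genes with a symbol. The median log2 difference was 1.35 (1.34 bounded). Cxcl2, a neutrophil chemokine, stood at 91.7 and 88.3 CPM in trachea and 1.87 and 1.27 CPM in whisker, and Csf2 (GM-CSF), at a low level, at 4.00 and 3.18 CPM in trachea and 0.0416 and 0.0469 CPM in whisker. Il18rap, a chain of the interleukin 18 receptor, stood at 8.92 and 9.17 CPM in trachea and 0.333 and 0.0937 CPM in whisker. Il1r2, the decoy receptor of interleukin 1, stood at 83.4 and 76.1 CPM in whisker and 0.423 and 0.443 CPM in trachea and Il1f10 (interleukin 38) at 14.1 and 14.9 CPM in whisker and 0.115 and 0.0402 CPM in trachea. Il1r2 was 184-fold lower and Il1f10 at least 119.9-fold lower in trachea.

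Interferon-stimulated and antigen presentation genes lay mostly toward trachea, with 17 of 24 tested called higher and 4 lower. All genes with a symbol gave 33.2% higher and 28.4% lower. The median log2 difference of the list was 2.64. Ifit2, an antiviral effector, stood at 42.8 and 48.4 CPM in trachea and 0.125 and 0.328 CPM in whisker, and Slfn5, a schlafen family member, at 75.6 and 74.1 CPM in trachea and 0.457 and 0.469 CPM in whisker. They were 202-fold higher and 162-fold higher. Apol3 was at 0 in whisker and under 2 CPM in trachea. The members called lower were Tmem140, Mr1, Dhx58 and Apol9a. Mr1, which presents vitamin metabolites to T cells, stood at 31.0 and 33.1 CPM in whisker and 3.19 and 3.34 CPM in trachea, and Tmem140 at 40.4 and 39.7 CPM in whisker and 2.31 and 3.38 CPM in trachea.

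Epithelial oxidases, defensins and complement lay mostly toward whisker, with 12 of 17 tested (20 listed) called lower and 3 higher in trachea. All genes with a symbol gave 28.4% lower and 33.2% higher. The median log2 difference of the list was -2.88 (-1.89 bounded). Duox2, an oxidase that releases hydrogen peroxide at epithelial surfaces, stood at 163 and 187 CPM in whisker and 2.19 and 2.21 CPM in trachea, and its maturation factor Duoxa2 at 21.7 and 23.8 CPM in whisker and 0.269 and 0.121 CPM in trachea. Casp1, the inflammasome caspase, stood at 18.4 and 15.7 CPM in whisker and 0.692 and 0.684 CPM in trachea. Duox2 was 79.5-fold lower, Duoxa2 117-fold lower and Casp1 24.8-fold lower in trachea. C3, the central complement component, was the main exception, at 119 and 104 CPM in trachea and 1.91 and 1.36 CPM in whisker (log2 6.08 ± 0.31). Cyba, a subunit of NADPH oxidases, was also called higher.

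Cyclooxygenases lay toward trachea, and lipoxygenases of the epidermal barrier lay toward whisker. Of 11 tested prostaglandin and lipoxygenase genes (15 listed), 6 were called higher and 4 lower in trachea, against 33.2% and 28.4% of all genes with a symbol. Lipoxygenases were not all on the side of whisker, since the genes called higher included a lipoxygenase as well. Ptgs2, the inducible cyclooxygenase, stood at 586 and 574 CPM in trachea and 3.66 and 3.14 CPM in whisker, and Ptgs1, the constitutive cyclooxygenase, at 166 and 165 CPM in trachea and 2.29 and 2.34 CPM in whisker. Ptges, a prostaglandin E synthase, stood at 89.6 and 97.1 CPM in trachea and 8.86 and 7.36 CPM in whisker. Their log2 differences were 7.40 ± 0.27, 6.15 ± 0.20 and 3.52 ± 0.14. The 4 genes called lower were Pla2g2f, a secreted phospholipase, and the lipoxygenases Alox12b, Alox12 and Aloxe3, of which Alox12b and Aloxe3 act in the epidermal barrier. Pla2g2f stood at 5.07 and 5.25 CPM in whisker and 0 and 0 CPM in trachea, and Alox12b at 1.04 and 1.36 CPM in whisker and 0 and 0.0805 CPM in trachea. The summed level of the list was 868 and 861 CPM in trachea and 63.6 and 65.0 CPM in whisker.

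Genes of xenobiotic, retinoid and aldehyde metabolism gave 20 called higher and 13 lower of 55 tested (56 listed), with a median log2 difference of 0.50. These counts were near the shares of all genes with a symbol, 33.2% higher and 28.4% lower. After Gstt3, the largest difference toward trachea was that of Pon3, a paraoxonase, at 14.1 and 14.1 CPM in trachea and 0.125 and 0.0469 CPM in whisker. Sdr16c6, a dehydrogenase of retinoid and wax metabolism, stood at 12.3 and 13.2 CPM in whisker and 0 and 0 CPM in trachea, and Adh7, an alcohol dehydrogenase, at 7.19 and 7.59 CPM in whisker and 0.269 and 0.161 CPM in trachea. Cyp24a1, which degrades vitamin D, was low in whisker and nearly absent in trachea, with 1.83 and 1.73 CPM in whisker and 0.0385 and 0 CPM in trachea. Genes of these families have near copies, and reads with several alignments were left uncounted, so their levels are less certain than those of single-copy genes.

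Ion channels, pumps and their regulators gave 18 called higher and 13 lower of 43 tested, against 33.2% and 28.4% of all genes with a symbol. Aqp5, a water channel of airway and glands, stood at 19.4 and 22.1 CPM in trachea and 0.208 and 0.0469 CPM in whisker, and Clic6, a chloride channel family member, at 41.9 and 42.0 CPM in trachea and 0.208 and 0.281 CPM in whisker. They were at least 148-fold higher and 172-fold higher. Atp12a, a non-gastric proton-potassium pump, stood at 13.9 and 13.1 CPM in whisker and 0 and 0.121 CPM in trachea, and Atp6v1c2, a subunit of the vacuolar pump, at 31.4 and 32.8 CPM in whisker and 2.31 and 2.09 CPM in trachea. The median log2 difference of the list was 0.44 (0.35 bounded).

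Cell cycle genes were called less often than genes with a symbol in general, as a count and without a test of that difference. Of 47 tested, 13 were called higher and 3 lower in trachea, and 31 were not called. All genes with a symbol gave 33.2% higher and 28.4% lower. The median log2 difference was 0.54 (0.55 bounded). Within this list, the largest differences were in genes of replication licensing and the G1/S step. The names on the list nearly all begin with A to E, so many other cell cycle genes were not covered. Orc1 stood at 12.8 and 11.8 CPM in trachea and 1.83 and 1.45 CPM in whisker, Cdc6 at 11.5 and 11.1 CPM in trachea and 1.79 and 1.59 CPM in whisker and Ccne1 (cyclin E1) at 54.9 and 53.1 CPM in trachea and 12.6 and 13.4 CPM in whisker. These 3 were 7.51-fold higher, 6.68-fold higher and 4.15-fold higher in trachea. E2f2, a factor of the same step, was 2.82-fold lower, and the mitotic regulators Aurkb and Cdc25b were 2.39-fold lower and 2.35-fold lower. Among cyclin D and G genes, Cdk6 and the inhibitors of the cyclin-dependent kinases, 5 were called higher and 3 lower of 11 tested. Ccnd2 (cyclin D2) stood at 260.1 and 284 CPM in trachea and 44.8 and 34.5 CPM in whisker, and Cdkn2a, which encodes p16 and p19ARF, at 115 and 113 CPM in trachea and 34.3 and 35.5 CPM in whisker. Cdkn1c (p57) stood at 66.7 and 66.9 CPM in whisker and 4.73 and 3.94 CPM in trachea, and Cdkn1b (p27) at 209 and 219 CPM in whisker and 46.1 and 49.7 CPM in trachea. Inhibitors were found on both sides, with log2 differences of 1.71 ± 0.14 for Cdkn2a, -3.94 ± 0.20 for Cdkn1c and -2.16 ± 0.08 for Cdkn1b.

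Markers of other cells moved with the groups as well. All genes with a symbol gave 33.2% higher and 28.4% lower. The marker counts here and in the next paragraph are read against these shares. Basal epithelial markers gave 3 called lower in trachea of 4 tested (9 listed). Ngfr, a marker of basal cells, stood at 35.9 and 35.0 CPM in whisker and 0.346 and 0.282 CPM in trachea, a log2 difference of -6.74 ± 0.46. Leukocyte markers gave 8 called higher and 3 not called of 11, and the fit of only these 4 samples called 4 higher. In 6 of the 11 a group mean was under 3 counts, and the median log2 difference was 2.97 (0.63 bounded). Their sum of 295 and 297 CPM in trachea and 31.3 and 30.8 CPM in whisker came mainly from Arhgdib and Irf8 in trachea. Arhgdib, a regulator of small GTPases, stood at 195 and 197 CPM in trachea and 3.16 and 4.26 CPM in whisker, and Irf8, an interferon-related factor, at 77.1 and 78.1 CPM in trachea and 15.1 and 14.9 CPM in whisker. Cd53, a pan-leukocyte gene, stood at 0.231 and 0.282 CPM in trachea and 0.457 and 0.187 CPM in whisker, and Cd68, a lysosomal gene of macrophages, at 12.2 and 11.1 CPM in trachea and 11.98 and 10.7 CPM in whisker, and neither was called. Ptprc has no symbol in the tables used here.

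Endothelial markers gave 5 called higher of 5 tested (9 listed), with a summed level of 17.2 and 15.3 CPM in trachea and 4.45 and 5.20 CPM in whisker. In 3 of the 5 a group mean was under 3 counts, and the median log2 difference was 3.64 (2.56 bounded). Esam, an endothelial junction gene, stood at 1.77 and 1.57 CPM in trachea and 0.0416 and 0.141 CPM in whisker. Pecam1 and Cdh5, the defining endothelial genes, have no symbol here. Muscle markers gave 4 called higher, led by Acta1 at 6.84 and 6.92 CPM in trachea and 0.0832 and 0.328 CPM in whisker, and 1 lower of 5 (9 listed). The summed level of the muscle markers was 13.9 and 14.0 CPM in trachea and 16.6 and 17.5 CPM in whisker. Nerve and neuroendocrine markers gave 4 called higher and 2 lower of 6 (11 listed). In 4 of the 6 a group mean was under 3 counts, and the median log2 difference was 5.23 (4.75 bounded). Calcb, a neuropeptide gene, stood at 19.8 and 15.3 CPM in trachea and 0.0416 and 0.234 CPM in whisker, and Syn1 (synapsin 1) at 8.84 and 8.09 CPM in trachea and 0.0416 and 0.187 CPM in whisker. The summed level of that list was 39.5 and 34.2 CPM in trachea and 7.19 and 8.34 CPM in whisker. The part that other cell types had in the lists above was not tested.

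**Figure D4:**
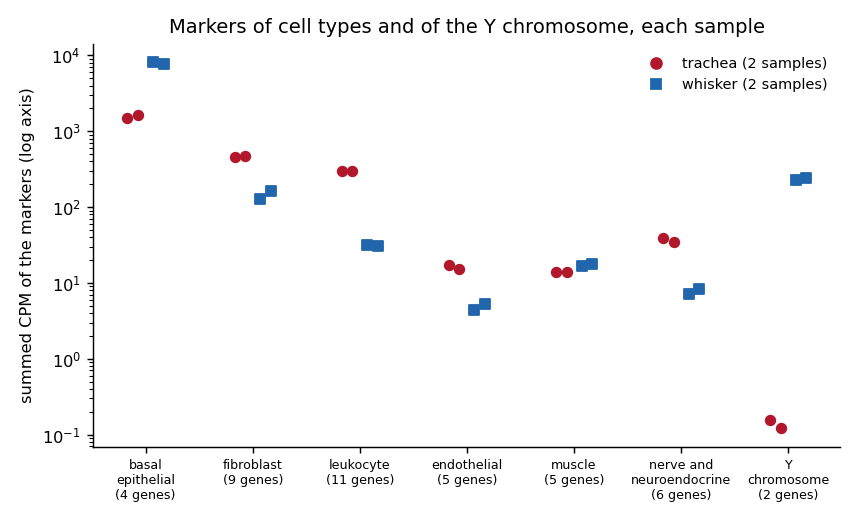
Summed CPM (log axis) of the tested markers of 6 cell types and of the 2 genes listed as Y-linked, for each trachea sample (circles) and whisker sample (squares). Basal and Y chromosome sums lie higher in the whisker samples and fibroblast, leukocyte, endothelial and nerve sums lie higher in the trachea samples. Muscle sums lie close together.

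The same tissues were sampled again after the cells had been recovered from the transplants, in 4 other samples. By the study's methods these cells descend from those cultured before, so differences between the donors carry over. The 4 samples are no independent repeat, and they entered the same fit. Recovered trachea cells were called higher than recovered whisker cells in 1308 genes (9.83%) and lower in 1226 (9.22%). Of the 2055 genes higher before transplantation, 40 (1.95%) were called lower among recovered cells, and of the 1712 lower genes 21 (1.23%) were called higher. Before transplantation, genes with a symbol were called more often than all genes tested, 61.7% against 28.3%. For recovered cells the share of genes with a symbol was not computed, so the list counts have no such share beside them. Counts over the lists were as follows among recovered cells. The keratins gave 4 called higher and 1 lower, the airway secretory genes 11 and 1, the motile cilia genes 13 and 2, and the interferon and antigen genes 15 and 2. Chemokines and cytokines gave 4 called higher and 14 lower, where 20 and 9 had been called before. Cell cycle genes gave 1 higher and 11 lower, where 13 and 3 had been called before. Of the 9 fibroblast markers, Aspn was called lower and the others were not called.

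Krt8 in recovered cells stood at 242 and 257 CPM in trachea and 0.046 and 0.328 CPM in whisker, a log2 difference of 10.61 ± 0.68 against 10.47 ± 0.42 before. Krt10 stood at 821 and 917 CPM in whisker and 1.27 and 0.948 CPM in trachea, and its log2 difference was -9.62 ± 0.35. The groups did not overlap for either keratin. Cxcl2 stood at 13.9 and 15.98 CPM in trachea and 14.3 and 14.2 CPM in whisker, so the groups overlapped, and the log2 difference was 0.07 ± 0.23 against 5.84 ± 0.43 before. Fxyd4 stood at 51.4 and 52.2 CPM in whisker and 33.2 and 36.4 CPM in trachea, a log2 difference of -0.57 ± 0.12. A test of the change itself called 816 genes (6.13%) toward trachea and 944 (7.1%) toward whisker, 1760 (13.2%) in all, at an adjusted p under 0.05 and a change of at least 2-fold, among them Cxcl2 (-5.76 ± 0.49, adjusted p = 3.1e-07) and Fxyd4 (6.34 ± 0.33, adjusted p = 1.5e-09). For Krt8 the change was 0.14 ± 0.80 (adjusted p = 0.91) and for Krt10 0.81 ± 0.49 (adjusted p = 0.21). The recovered whisker cells were a subclone and the recovered trachea cells a bulk culture, so the selection of a subclone and the transplantation cannot be told apart.

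**Figure D5:**
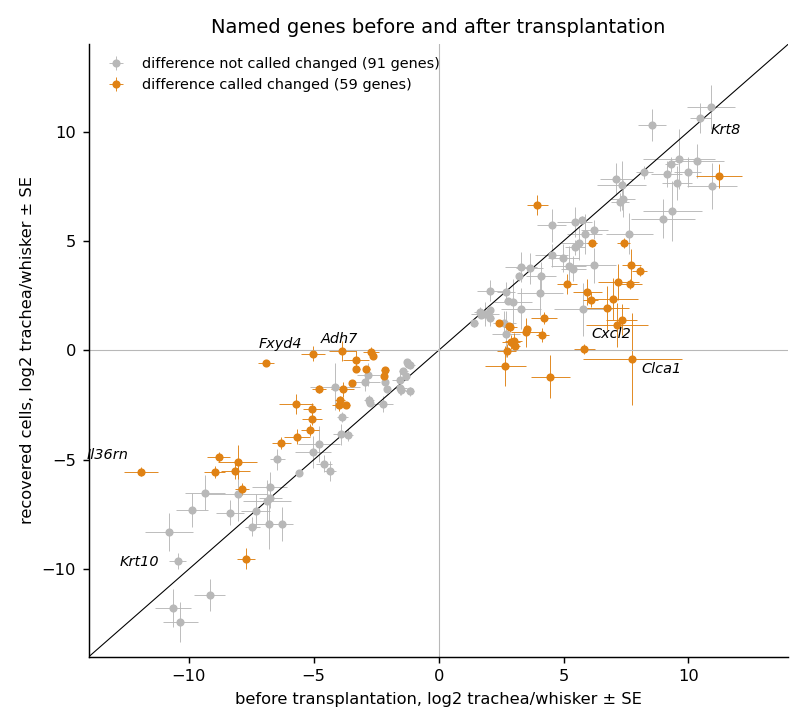
Log2 difference of trachea against whisker before transplantation (horizontal) and among recovered cells (vertical), with standard errors, for the 150 genes that the naming rule chose. The 59 genes whose difference was called changed are orange and the other 91 grey, and the line marks equal differences. Most of the genes were named for their difference on the horizontal axis, and fitted values of genes under 3 counts in a group depend on the model and are no bounds.

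Trachea cells were also set against the mean of bladder, vagina and thymus cells before transplantation, which leaves the whisker clone out. It does not remove clone and donor age, since the labels give the thymus culture a clone number, although its title reads bulk. Thymus donors were younger than trachea donors, while vagina donors had the same age and bladder donors nearly the same. This comparison shares the trachea samples with the one above. It tests against a mean of log2 levels, so a gene called here need not differ from each of these tissues. It called 818 genes higher (6.15%) and 819 lower (6.16%) in trachea. The 2 genes listed as Y-linked were called lower in trachea here as well. Tissue and the level of these transcripts cannot be told apart in this comparison either. For the thymus part of the mean, donor age and a possible clone cannot be told apart from tissue. The airway secretory list was divided against these tissues, with 6 called higher and 5 lower of 19, and the motile cilia list gave 2 higher and 3 lower of 22. Here too the share of genes with a symbol was not computed. Krt8 was higher in trachea than the mean of these tissues, with a log2 difference of 1.08 ± 0.10, as was Krt4 (1.97 ± 0.28). Cd38 (adjusted p = 3.3e-11), Crip1 (3.7e-09) and Aqp5 (1.1e-09) were called higher in trachea against this mean as well. Akap12 (0.36 ± 0.08), Gstt3 (-0.05 ± 0.10) and Foxa1 (0.93 ± 0.21) were not called, Akap12 and Foxa1 because they differed by less than 2-fold (adjusted p = 0.0024 and 0.0015). Krt10 was lower in trachea than the mean of the other tissues (-2.17 ± 0.36), and Il36rn was called lower as well (adjusted p = 4.9e-05). Tfap2b (adjusted p = 0.42) and Nfasc (adjusted p = 0.18) did not pass.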

How the data were processed

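RNA of sorted EGFP-positive cells was sequenced from stranded mRNA libraries. The authors aligned reads to Rnor 6.0 with STAR 2.5.2b after trimming with cutadapt 1.8, counted them per Ensembl gene with HTSeq 0.6.1, and deposited raw counts for each sample, per the labels and the study's methods. Between 12038442 and 14134822 reads per sample with several alignments were left uncounted, and 15.6% to 20.3% of uniquely aligned reads fell on no gene or more than 1, and neither entered library sizes. Counts were scaled by TMM (edgeR 4.0.16), and a gene was kept if it reached 1 CPM in any of the 20 samples. Differences were tested with limma 3.58.1 (voom, R 4.3.3) in 1 model with a mean for each of 10 groups and 10 residual degrees of freedom, with Benjamini-Hochberg adjustment over all 13302 genes. The test was chosen after the study's methods. Spread is shared across genes and groups, since an exact permutation test of 2 against 2 samples cannot give a two-sided p below 0.33. Replicates of a group differed beyond sampling noise, and none were merged. The code was tested on simulated data.

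Symbols came from the study's supplementary tables, whose own fold changes and p values were not used, and pair 2311 of 32494 identifiers. Genes named were the 12 with the largest fold each way, lower bounds taken at their value, among called genes whose higher group reached 10 CPM in each sample, with groups that did not overlap and a usable symbol, up to 3 called members at each end of each list, and genes the paper names. Members outside this rule, which were Aloxe3, Apol9a, Cd53, Cd68, Cdh1, Clca2, Dnah9, Dsg3, Eda, Edar, Epcam, Irf8, Krtap3-2 and Tspan8, were named after their values were seen. Some genes that the rule chose are not reported here. The members and lists were chosen with earlier results of these data known. Alternatives were edgeR's quasi-likelihood test, DESeq2 1.42.0 (Wald test and size factors), omitting the filter, requiring 10 counts in 2 samples, fitting only the groups compared, blocking on the replicate number, requiring a log2 difference of 2, and leaving out each replicate. Positions are those of GRCr8 for the 3 RefSeq promoters and are not given for other genes.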

Additional observations from a re-analysis of the deposited data

Results flagged for a closer look

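For 12 of the genes named for their size before transplantation or in the paper, the difference between trachea and whisker cells changed after transplantation by the test of the change itself (limma voom, adjusted p under 0.05 and at least 2-fold). That test called 13.2% of the 13302 genes tested, and 59 of the 150 genes that the naming rule chose. The change is the log2 difference among recovered cells minus that before transplantation. Genes named for their size were chosen by the difference before transplantation, which is part of the change tested. That choice by itself favours a smaller difference among recovered cells. Before transplantation, Il36rn and Wnt3 had a trachea mean and Dkk3 a whisker mean under 3 counts, as did Nfasc in trachea and Dkk3 in whisker among recovered cells, so their fitted values depend on the model.

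Among genes lower in trachea, Il36rn changed by 6.37, from -11.92 to -5.55, Dmkn by 3.93, from -8.81 to -4.87, and Sbsn by 3.42, from -8.97 to -5.55. Trim63 changed by 2.62, Apoe by 1.54 and Itgb8, an integrin chain, by 1.52, and each remained called lower in trachea among recovered cells. Wnt3 changed by 2.85 and was not called among recovered cells. Nfasc went the other way, by -1.80, from -7.71 to -9.51.

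Among genes higher in trachea, Dkk3 changed by -4.63, Ptges by -2.54, Ptgs1 by -1.25 and Wnt4 by -1.16. Ptges was not called among recovered cells, with a log2 difference of 0.98, and the other 3 remained called higher in trachea.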

How the results depend on the processing

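The count of genes differing before transplantation was 3767. It was 3770 with edgeR, 3677 with the DESeq2 Wald test, 3631 with the stricter filter, 4732 with no low-count filter and 3425 with a fit of only the 4 samples. Leaving out each replicate in turn gave between 3578 and 3660 genes before transplantation (1866 to 1957 higher and 1628 to 1755 lower), 2335 to 2464 among recovered cells, 1546 to 1705 for the change and 1406 to 1707 against the other tissues. A log2 difference of at least 2 left 1803 genes, 1109 higher and 694 lower in trachea. That criterion left 1174 genes among recovered cells, 750 for the change after transplantation and 623 against the other tissues. Replicate numbers did not pair the samples: deviations from the group means correlated at 0.03 between trachea and whisker, and between -0.12 and 0.24 over 45 pairs of groups. With the replicate number as a block, 3782 genes were called before transplantation, 2552 among recovered cells, 1795 for the change and 1649 against the other tissues. Of the 150 named genes, 13 fell below the threshold at a log2 difference of 2, 1 without whisker replicate 1 and 2 without whisker replicate 2, and none reversed under the alternatives run. No value was obtained for 7 of them in the fit of 4 samples, for 2 with the stricter filter and for 1, Wnt3, without whisker replicate 1, where they were filtered out. Differences near 3 counts rest on few reads at this depth.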
